A study of Solanum lycopersicum with 6 samples.

Results

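Flavonoids are made from phenylalanine by a chain of enzymes that plants switch on and off mostly through the level of their transcripts. Phenylalanine ammonia-lyase (PAL) opens the general phenylpropanoid pathway, which also feeds chlorogenate and lignin, and chalcone synthase (CHS) takes the step that commits carbon to flavonoids. Chalcone isomerase then closes the ring of the chalcone, flavanone 3-hydroxylase (F3H) makes dihydroflavonols, flavonoid 3'-hydroxylase (F3'H) adds a hydroxyl group to the B ring, and flavonol synthase (FLS) turns dihydroflavonols into flavonols, which act in leaves as sunscreens and antioxidants.

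The genes described here are 7 genes of this route in tomato, found in the table by their identifiers and chosen with earlier results of these data known: CHS1 (Solyc09g091510.3), CHS2 (Solyc05g053550.3), CHI-like (Solyc05g052240.3), F3H (Solyc02g083860.3), F3'H (Solyc03g115220.4), FLS (Solyc11g013110.2) and PAL (Solyc09g007910.4). All 7 were found among the 35603 genes of the table, and all 7 passed the filter on low counts. RNA was sequenced from the fourth leaf of wild-type Solanum lycopersicum cv. M82, a processing tomato widely used in the laboratory. The plants were 4 weeks old, had been raised at 24 °C under 16 h of light per day, and were kept at 45 °C (heat stress, HS) for 0, 1 or 6 h. Each time had 2 biological replicates, each made from pooled plants, so that there were 6 libraries. The 0 h libraries were the control of both HS times. Unheated plants of the 1 h and 6 h times were not analysed here, so heat and time of day cannot be told apart. In whole leaves, fewer cells of a type and less RNA per cell cannot be told apart either.

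The total count was between 25147160 and 30738632 per library. Levels are given as CPM, the usual unit of counts scaled to library size, with TMM factors applied to the sizes, and comparisons were tested with edgeR's quasi-likelihood test with Benjamini-Hochberg (BH) adjustment over the 19123 genes that held at least 50 counts in at least 2 libraries. A gene was called at an adjusted p below 0.05. The response to HS was wide, with 83.9% of tested genes called over the 3 times, and all 7 genes were among them (BH-adjusted p in edgeR between 1.1e-05 and 9.3e-05). The identifiers of the marker lists are named by no file used here. Of 7 identifiers listed for leaf mesophyll, 6 were in the table, and their summed level was 14800 and 13800 CPM at 0 h, 9100 and 9550 CPM at 1 h, and 8260 and 5940 CPM at 6 h. Of 4 listed for glandular trichomes, 3 were in the table with a summed level between 0.21 and 1.44 CPM, and 1 was at 0 in all libraries. Of 2 listed for ripe fruit, 1 held at most 3 counts in every library. The other, Solyc09g089580.4, held 2.92 and 3.93 CPM at 0 h, 16.5 and 17.5 CPM at 1 h, and 8.9 and 16.3 CPM at 6 h, and was called higher than 0 h at 1 h (log2 fold change 2.31, SE 0.297, BH-adjusted p in edgeR 0.00021) and at 6 h (1.88, SE 0.295, adjusted p in edgeR 0.00088). Its part in the results was not tested.

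After 1 h of HS, the 6 flavonoid genes fell and PAL rose. The falls ranged from 3.96-fold for FLS to 19.6-fold for CHS1, and the rise of PAL was 3.67-fold. After 6 h, the levels of the 6 flavonoid genes were higher than at 1 h and PAL was lower than at 1 h. The genes differed in how far they lay from the 0 h level at 6 h. F3'H and PAL were not called against 0 h, whereas CHS1, CHS2, CHI-like, F3H and FLS were still called lower. The levels of the 7 genes are plotted by library.

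**Figure D1:**
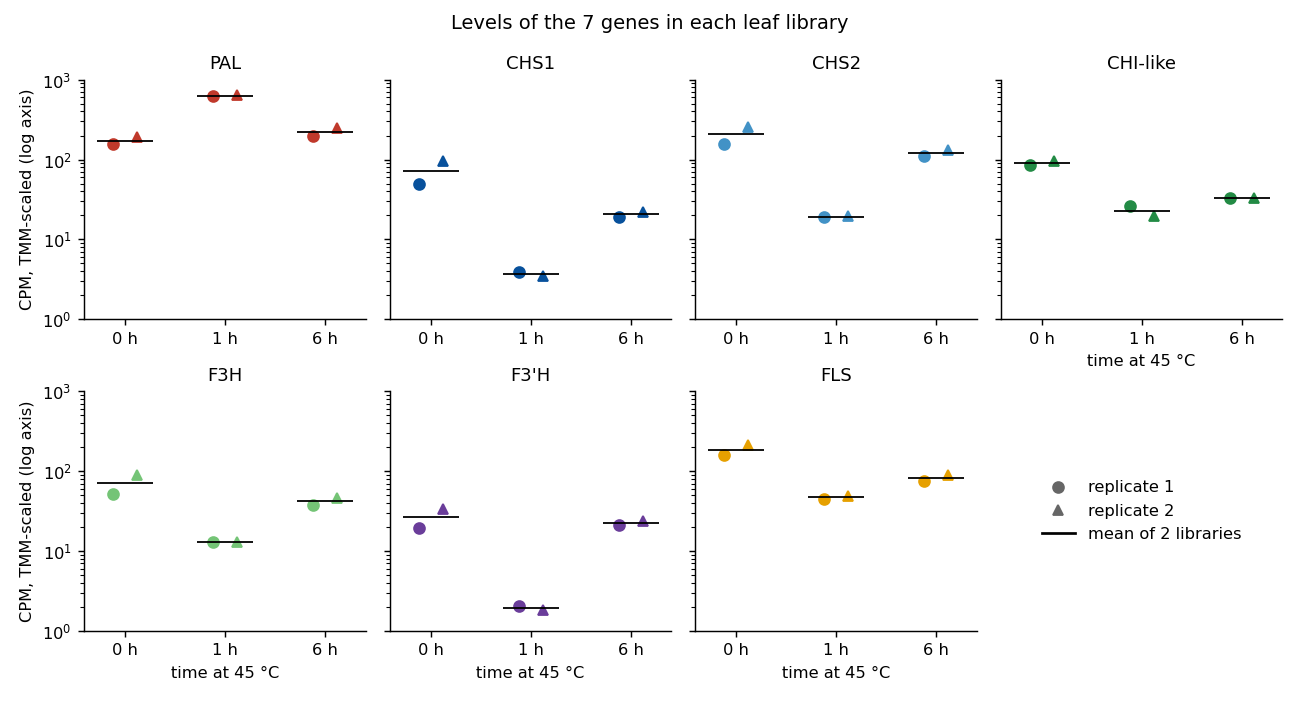
Level of each of the 7 genes in CPM (vertical log axis, TMM-scaled) at 0, 1 and 6 h at 45 °C (horizontal axis), with a circle for replicate 1, a triangle for replicate 2 and a line for their mean. PAL peaked at 1 h at 621 and 644 CPM, and the 6 other genes were lowest at 1 h, down to 2.03 and 1.84 CPM for F3'H.

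PAL lies on chromosome 9 at 1472743 to 1475139 on the plus strand of the M82 gene models version 1.1.0, the build of all positions given here. Its level was 155 and 189 CPM at 0 h, 621 and 644 CPM at 1 h, and 196 and 249 CPM at 6 h. The 1 h libraries stood above all others, and the lower 6 h library stood just above the higher 0 h library. PAL rose by a log2 fold change of 1.88 at 1 h against 0 h (SE 0.167, BH-adjusted p in edgeR 2.7e-05), and 6.68% of tested genes had a log2 fold change as high or higher.

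CHS1 and CHS2 are the chalcone synthase genes, which join a coumaroyl unit with malonyl units. CHS1 lies on chromosome 9 at 67186621 to 67188779 on the plus strand, and CHS2 on chromosome 5 at 66263810 to 66265516 on the plus strand. CHS1 held 49.4 and 95.4 CPM at 0 h, 3.94 and 3.44 CPM at 1 h, and 19.3 and 21.8 CPM at 6 h. CHS2 held 156 and 258 CPM at 0 h, 19.1 and 19.5 CPM at 1 h, and 112 and 132 CPM at 6 h. For both genes the 3 times did not overlap, with 0 h highest and 1 h lowest. The 1 h levels of CHS1 rested on 107 and 82 counts, and those of CHS2 on 518 and 466 counts. CHS1 fell by a log2 fold change of -4.29 at 1 h against 0 h (SE 0.314, BH-adjusted p in edgeR 9.5e-06), and 0.298% of tested genes fell as far or further. The log2 fold change of CHS2 was -3.42 (SE 0.236, BH-adjusted p in edgeR 7e-06).

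CHI-like is named for its likeness to chalcone isomerase. Proteins of this kind are known from petunia and morning glory to enhance flavonoid production. The gene lies on chromosome 5 at 65147392 to 65150046 on the plus strand. It held 85.7 and 97.0 CPM at 0 h, 26.1 and 19.5 CPM at 1 h, and 33.1 and 32.6 CPM at 6 h. The 0 h libraries were far above the others, and the 6 h libraries lay above the 1 h libraries by less than the 0 h libraries lay above both. Its log2 fold change at 1 h against 0 h was -2.0 (SE 0.148, BH-adjusted p in edgeR 1e-05). The fall was 4.00-fold.

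F3H lies on chromosome 2 at 46741124 to 46743134 on the minus strand. It held 51.7 and 89.1 CPM at 0 h, 13.1 and 12.9 CPM at 1 h, and 37.6 and 46.1 CPM at 6 h. The 3 times did not overlap, although the gap between the lower 0 h library and the higher 6 h library was smaller than that between the 0 h libraries. The log2 fold change at 1 h against 0 h was -2.44 (SE 0.243, BH-adjusted p in edgeR 5e-05).

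F3'H, which sets whether the B ring carries the second hydroxyl group of quercetin-type flavonols, spans 5429 bp on chromosome 3, at 61041287 to 61046715 on the minus strand. Its level was 19.4 and 33.6 CPM at 0 h, 2.03 and 1.84 CPM at 1 h, and 21.4 and 24.0 CPM at 6 h. The 1 h libraries were far below the rest, and the 6 h libraries lay between the 0 h libraries. The 1 h levels rested on 55 and 44 counts. The gene fell 13.7-fold at 1 h against 0 h, a log2 fold change of -3.77 (SE 0.284, BH-adjusted p in edgeR 1.1e-05).

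FLS, the last step towards flavonols in this set, lies on chromosome 11 at 5961078 to 5965371 on the plus strand. It held 161 and 210 CPM at 0 h, 45.0 and 48.9 CPM at 1 h, and 75.2 and 89.5 CPM at 6 h. The 3 times did not overlap, with 6 h between 1 h and 0 h. The log2 fold change at 1 h against 0 h was -1.98 (SE 0.158, BH-adjusted p in edgeR 1.5e-05), the smallest fall of the 6 flavonoid genes. The intervals of FLS, CHI-like and F3H overlapped, from -2.35 to -1.62 for FLS, from -2.34 to -1.66 for CHI-like and from -2.99 to -1.88 for F3H (95%), so that their order was not resolved.

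At 1 h against 0 h, 6 of the 7 genes were called lower and 1 was called higher. Over all tested genes, 31.3% were called lower and 32.2% higher, together 63.5%, so a call alone was common. The median log2 fold change was -2.44 over the 7 genes and -2.93 over the 6 flavonoid genes, whereas the median over all tested genes was 0.00 and the median absolute value 0.62. The 2 times did not overlap in all 7 genes, and over all tested genes this held for 42.3% with the 1 h libraries higher and 41.3% with them lower. Leaving out any library, or any scaling tried, kept all 7 calls and their direction. The value of CHS1 moved most, to -4.69 when replicate 1 of 0 h was left out and to -3.76 when replicate 2 of 0 h was left out.

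**Figure D2:**
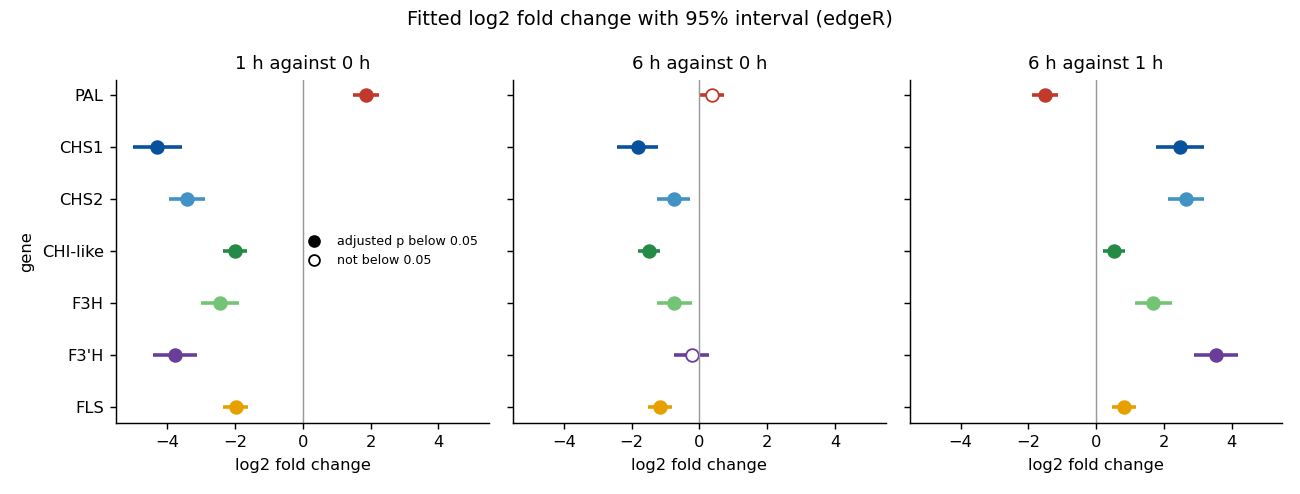
Fitted log2 fold change (horizontal axis) of each of the 7 genes (vertical axis) in the 3 comparisons, with 95% intervals as lines and filled points for a BH-adjusted p below 0.05 in edgeR. At 1 h against 0 h the points run from -4.29 for CHS1 to 1.88 for PAL, and at 6 h against 0 h only F3'H and PAL have open points.

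At 6 h against 0 h, 5 of the 7 genes were called lower and 0 higher, and 2 were not called. The count of 0 was also 0 at an unadjusted p below 0.05 in edgeR and 0 with DESeq2, but it was 1 with upper-quartile scaling, with library size scaling and without replicate 1 of 6 h. The count of 5 was 3 with library size scaling, without replicate 1 of 6 h and at a threshold of 0.01. Over all tested genes, 28% were called lower and 30.9% higher, together 58.8%. The median log2 fold change of the 7 genes was -0.76, against 0.03 over all tested genes, where the median absolute value was 0.52. The 2 times did not overlap in 6 of the 7 genes, and over all tested genes they did not overlap in 41.2% with 6 h higher and in 37.7% with 6 h lower.

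CHS1, CHI-like and FLS had the largest estimated falls at 6 h, and their order was not resolved. Their 95% intervals overlapped, from -2.42 to -1.21 for CHS1, from -1.81 to -1.15 for CHI-like and from -1.52 to -0.82 for FLS. Without replicate 2 of 0 h, CHS1 was at -1.31 and CHI-like at -1.43. With all libraries, CHS1 was 3.52-fold lower at 6 h, with a log2 fold change of -1.82 (SE 0.265, BH-adjusted p in edgeR 0.00059). CHI-like was 2.78-fold lower, with a log2 fold change of -1.48 (SE 0.144, adjusted p in edgeR 8e-05), and FLS 2.25-fold lower, with a log2 fold change of -1.17 (SE 0.154, adjusted p in edgeR 0.00034). The calls of these 3 genes held when any library was left out and under every scaling tried.

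CHS2 and F3H were nearer to the 0 h level. CHS2 had a log2 fold change of -0.76 at 6 h against 0 h (SE 0.212, BH-adjusted p in edgeR 0.014), and F3H one of -0.75 (SE 0.225, adjusted p in edgeR 0.020). The calls of CHS2 and F3H both depended on single libraries. Without replicate 1 of 6 h, CHS2 was at -0.65 (adjusted p 0.082) and F3H at -0.61 (adjusted p 0.12), and neither was called by edgeR. Without replicate 2 of 0 h, F3H was at -0.35 and was not called (edgeR adjusted p 0.077), and CHS2 was at -0.40 and still called. With library size as the only scaling, CHS2 was at -0.49 (adjusted p 0.071) and F3H at -0.48 (adjusted p 0.099), again not called by edgeR.

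F3'H and PAL were not called at 6 h against 0 h, which does not show that they were unchanged. For F3'H the log2 fold change was -0.23, with a 95% interval from -0.75 to 0.29 (BH-adjusted p in edgeR 0.42). It was -0.57 and called lower without replicate 1 of 0 h (edgeR adjusted p 0.010), and 0.18 and not called without replicate 2 of 0 h (adjusted p 0.36), so the direction depended on which 0 h library was used. For PAL the log2 fold change was 0.37, with a 95% interval from 0.00 to 0.74 and a BH-adjusted p of 0.081 in edgeR. PAL was called higher, at 0.53, without replicate 1 of 6 h (edgeR adjusted p 0.017).

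The 0 h libraries differed from each other in all 7 genes in the same direction. Replicate 2 was higher than replicate 1 by between 0.18 (CHI-like) and 0.94 (CHS1) on the log2 scale of CPM plus 0.5, whereas 50.3% of all tested genes were higher in replicate 2. The gap was 0.73 for CHS2, 0.78 for F3H, 0.78 for F3'H, 0.39 for FLS and 0.28 for PAL. A gap as large as that of CHS1 or larger towards replicate 2 was found in 1.5% of tested genes. At 1 h, 3 of the 7 genes were higher in replicate 2, with gaps from -0.41 to 0.12. At 6 h, 6 of the 7 were higher in replicate 2, with gaps from -0.02 to 0.35, against 49.3% of tested genes. The cause of these gaps was not tested.

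The direct comparison of 6 h with 1 h tested whether the levels moved again within the treatment. It called 6 of the 7 genes higher and 1 lower at 6 h, against 34.7% of tested genes higher and 31.7% lower, together 66.3%. The 2 times did not overlap in all 7 genes, against 45.1% of tested genes with 6 h higher and 40.5% with 6 h lower. The median log2 fold change was 1.69 for the 7 genes and 0.06 for all tested genes.

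F3'H had the largest difference between 6 h and 1 h of the 7 genes, 11.7-fold (log2 fold change 3.55, SE 0.283, BH-adjusted p in edgeR 1.6e-05), and 0.46% of tested genes rose as much or more. CHS2 was 6.32-fold higher (log2 fold change 2.66, SE 0.230, adjusted p in edgeR 2.4e-05) and CHS1 5.55-fold higher (2.47 on the log2 scale, SE 0.309, adjusted p in edgeR 0.00017). F3H was 3.23-fold higher at 6 h, with a log2 fold change of 1.69 (SE 0.240, adjusted p in edgeR 0.00034). These 4 genes moved by more than 1 on the log2 scale. FLS and CHI-like moved less, by 0.81 (SE 0.155, adjusted p in edgeR 0.0018) and 0.52 (SE 0.146, adjusted p in edgeR 0.012). The value of CHI-like was 0.33 without replicate 2 of 1 h and was then not called by edgeR (adjusted p 0.11). PAL was 2.84-fold lower at 6 h, with a log2 fold change of -1.51 (SE 0.165, adjusted p in edgeR 8.4e-05).

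The part of the 1 h change that was left at 6 h was taken as the 6 h log2 fold change over the 1 h log2 fold change. Both are set against the same 0 h libraries, so the shares are a description. CHI-like kept 73.8% of its fall and FLS 59.1%, whereas CHS1 kept 42.4%, F3H 30.7%, CHS2 22.3% and F3'H 5.99%. PAL, which was not called at 6 h against 0 h, kept 19.6% of its rise. When a library was left out, the share ranged from 66.4% to 81.8% for CHI-like, from 53% to 65.7% for FLS and from 34.8% to 47.3% for CHS1. Without replicate 2 of 0 h it was 17.3% for F3H, 13.2% for CHS2 and -5.39% for F3'H, where the minus sign marks a 6 h level above 0 h, and without replicate 1 of 0 h it was 39.2%, 28.9% and 13.9% for the same genes. Without replicate 2 of 6 h it was 9.57% for PAL. CHI-like and FLS had the largest shares with any library left out. Their estimated falls at 1 h were the smallest, though not resolved from that of F3H. The 1 h change is the divisor of the share, so a smaller fall raises the share by itself.

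**Figure D3:**
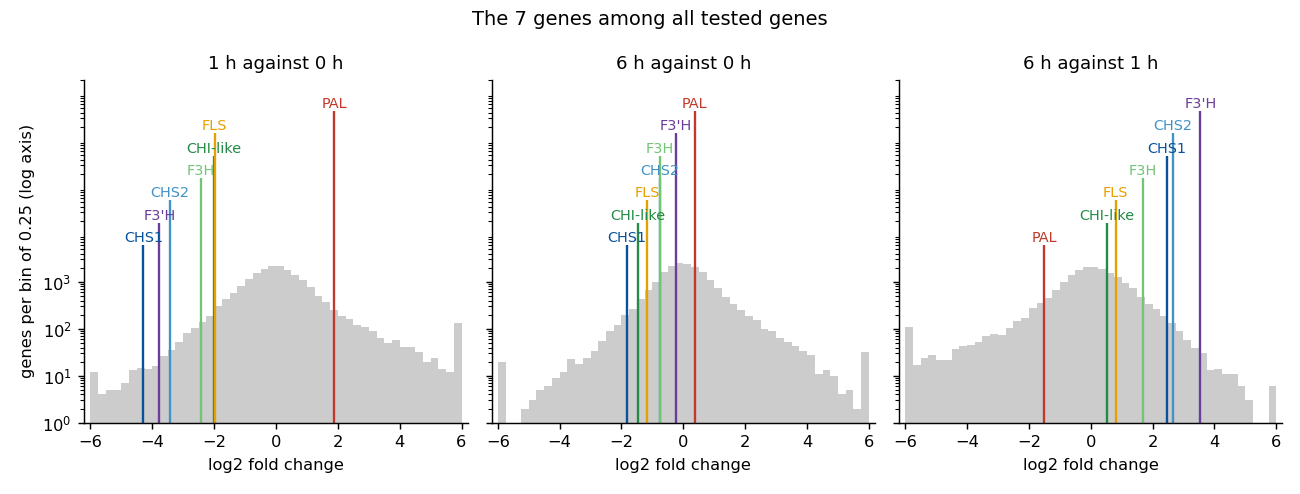
Distribution of the log2 fold change (horizontal axis) over the 19123 tested genes in the 3 comparisons (grey, vertical log axis, the outermost bins also hold genes beyond 6 in size), with a coloured line at the value of each of the 7 genes (the heights of the lines only separate the names). At 1 h against 0 h, 6 lines lie at -1.98 or lower, and at 6 h against 0 h all 7 lie between -1.82 and 0.37.

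Ratios between the genes within a library do not depend on the scaling of libraries. CHS1 gave 24.1% and 27.0% of the counts of CHS1 and CHS2 together at 0 h, 17.1% and 15.0% after 1 h of HS, and 14.7% and 14.1% after 6 h of HS. The share was lower in all heated libraries than in both 0 h libraries, and the exact (Clopper-Pearson) 95% intervals, which cover counting error only, reached up to 20.3% at 1 h and down to 22.9% at 0 h. CHS2 was the more abundant chalcone synthase transcript at all 3 times, also per kb of gene span. No test was run on this share or on the ratios that follow.

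On the log2 scale, the ratio of FLS to F3'H counts was 3.05 and 2.64 at 0 h, 4.47 and 4.73 after 1 h of HS, and 1.82 and 1.9 after 6 h of HS. It was thus above the 0 h values at 1 h and below them at 6 h, with no overlap between times. The log2 ratio of F3H to FLS was -1.64 and -1.24 at 0 h, -1.78 and -1.93 after 1 h of HS, and -1.0 and -0.96 after 6 h of HS. In counts, which are not scaled by gene length, F3H was below FLS in every library, and the gap was smallest at 6 h. The ratio of PAL counts to the summed counts of the 6 flavonoid genes, which was chosen after the values had been seen, was 0.297 and 0.241 at 0 h, 5.69 and 6.07 after 1 h of HS, and 0.655 and 0.720 after 6 h of HS. The 6 flavonoid genes summed to 523 and 783 CPM at 0 h, 109 and 106 CPM at 1 h, and 298 and 346 CPM at 6 h.

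**Figure D4:**
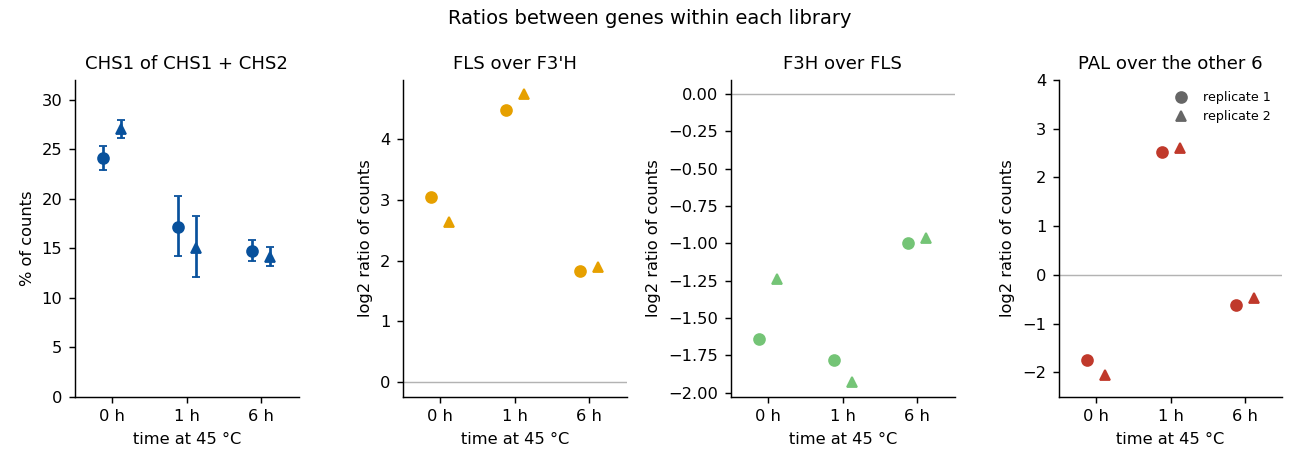
Ratios of counts between genes within each library at 0, 1 and 6 h (horizontal axis): the share of CHS1 in the chalcone synthase counts in percent with exact 95% intervals, and 3 log2 ratios (vertical axes), with a circle for replicate 1 and a triangle for replicate 2. The CHS1 share was between 14.1% and 17.1% in the heated libraries, and the log2 ratio of FLS to F3'H was highest at 1 h and lowest at 6 h.

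Levels of different genes were compared as CPM per kb of gene span, introns included, because the lengths in the table are spans. At 0 h CHS2 was highest, at 91.3 and 151 CPM per kb, followed by PAL at 64.9 and 78.9. FLS, F3H, CHI-like and CHS1 came next, and neighbours in that order overlapped, between 22.9 and 49.0 CPM per kb. F3'H was lowest at 3.57 and 6.2 CPM per kb. At 1 h PAL was highest, at 259 and 269 CPM per kb, far above CHS2 at 11.2 and 11.4, which overlapped with FLS at 10.5 and 11.4. CHI-like, F3H, CHS1 and F3'H followed without overlap, down to 0.373 and 0.340 CPM per kb for F3'H. At 6 h PAL, at 81.6 and 104 CPM per kb, was again above CHS2, at 65.5 and 77.5, and F3H overlapped with FLS. Per kb of span, F3'H was the lowest of the 7 genes at each time. F3'H also has the longest span of the 7, at 5429 bp. In CPM not divided by the span, F3'H at 6 h (21.4 and 24.0) overlapped with CHS1 (19.3 and 21.8).

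The genes closest in pattern were looked up among 16800 genes with at least 5 CPM in at least 2 libraries. The measure was the Euclidean distance over the 6 libraries between log2(CPM + 0.5) values, each centred on the mean of the gene. Of the 7 genes, CHI-like and FLS were closest to each other, at a distance of 0.553, and CHS2 and F3'H were at 0.692. For CHI-like, FLS and F3H, many genes outside the set were nearer. Of all genes compared, 77 were nearer to CHI-like than FLS was, and 84 were nearer to FLS than CHI-like was. For F3H, 215 were nearer than FLS, the least distant of the 7, was. Fewer were nearer for the other flavonoid genes. These were 7 for CHS1 and 4 for F3'H, nearer than CHS2 was, and 3 for CHS2, nearer than F3'H was. The gene closest to F3H of all was Solyc10g083440.2 on chromosome 10, at a distance of 0.222, which is on the list for the late anthocyanin steps used below. It held 33.5 and 67.3 CPM at 0 h, 8.85 and 8.0 CPM at 1 h, and 23.4 and 30.4 CPM at 6 h, so that it also shared the 0 h gap between replicates. For FLS the closest gene was Solyc02g063230.1 (0.123), and for PAL it was Solyc08g077740.1 (0.167), at no more than 6.49 CPM. The closest genes were Solyc03g121900.1 for CHS1 (0.280), Solyc10g079350.3 for CHS2 (0.350), Solyc02g065230.3 for CHI-like (0.264) and Solyc06g074090.3 for F3'H (0.542). PAL had no near neighbour in the set, with FLS the least distant at 3.87.

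The genes next to these 7 on the chromosome were also examined. None of the 7 overlapped another gene. F3'H has a neighbour on the same strand, Solyc03g115230.3, which lies 4799 bp away on the 5' side. That neighbour held 30.3 and 27.4 CPM at 0 h, 3610 and 3920 CPM at 1 h, and 33.9 and 79.6 CPM at 6 h. Its 1 h counts were 98038 and 93434, when F3'H held 55 and 44. Its log2 fold change at 1 h against 0 h was 7.03 (SE 0.433, BH-adjusted p in edgeR 3.9e-06), opposite to that of F3'H. On the other side of F3'H, 872 bp away on the same strand, Solyc03g115200.3 had a log2 fold change of -1.67 at 1 h (SE 0.302, adjusted p in edgeR 0.0014).

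Solyc05g053540.3, on the opposite strand 7373 bp from CHS2, was called lower at 1 h, as CHS2 was, with a log2 fold change of -0.57 (SE 0.139, adjusted p in edgeR 0.0066). Solyc02g083850.3, on the strand of F3H 4580 bp away, was not called at 1 h, at 0.58 (SE 0.245, adjusted p in edgeR 0.066), and was lower at 6 h than at 1 h, at -1.48 (SE 0.251, adjusted p in edgeR 0.00094).

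The neighbour of FLS on its strand, Solyc11g013100.2, rose at 1 h by 1.56 on the log2 scale (SE 0.128, adjusted p in edgeR 1.8e-05), opposite to FLS. Its other neighbour, Solyc11g013120.2 on the opposite strand, was called higher at 6 h against 0 h, at 0.53 (SE 0.138, adjusted p in edgeR 0.011). PAL is flanked by Solyc09g007900.4 on the opposite strand and Solyc09g007920.4 on the same strand, both on the list for the general phenylpropanoid pathway. Solyc09g007900.4 rose like PAL at 1 h, with a log2 fold change of 1.66 (SE 0.115, adjusted p in edgeR 7e-06), but was called lower than 0 h at 6 h, at -0.87 (SE 0.114, adjusted p in edgeR 0.00035). Solyc09g007920.4 was not called at 1 h, at 0.23 (SE 0.124, adjusted p in edgeR 0.13), and was called lower at 6 h, at -0.88 (SE 0.125, adjusted p in edgeR 0.00051). PAL itself had 0.37 at 6 h and was not called. Whether these effects differed between PAL and its neighbours was not tested.

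The rest of the pathway was described with lists of identifiers, which no file used here pairs with gene names. Of 38 identifiers, 36 were in the table and 27 were tested. At 1 h against 0 h, 8 of the 27 (29.6%) were called higher and 13 (48.1%) lower, against 32.2% and 31.3% of all tested genes. After 6 h of HS, 3 (11.1%) were called higher and 18 (66.7%) lower than at 0 h, against 30.9% and 28% of all tested genes. Compared with 1 h, 8 (29.6%) were called higher and 14 (51.9%) lower at 6 h, against 34.7% and 31.7% of all tested genes. The shares called higher were thus near or below those of all genes. The median of their log2 fold changes against 0 h was -0.59 after 1 h of HS and -0.88 after 6 h of HS.

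Besides PAL, 8 tested genes were listed for the general phenylpropanoid pathway. At 1 h against 0 h, 4 of them were called higher and 0 lower, against 32.2% and 31.3% of all tested genes. After 6 h of HS, 0 were called higher and 6 lower than at 0 h, against 30.9% and 28% of all tested genes. Compared with 1 h, 31.7% of all tested genes were called lower at 6 h, and 7 of the 8 listed genes were. The median of their log2 fold changes against 0 h was 0.61 after 1 h of HS and -0.88 after 6 h of HS, next to 1.88 and 0.37 for PAL. An example is Solyc05g056170.3, which held 131 and 133 CPM at 0 h, 407 and 429 CPM at 1 h, and 63.2 and 61.4 CPM at 6 h. The 1 h level was the highest and the 6 h level the lowest, whereas the 6 h level of PAL was above both 0 h libraries. The most abundant gene of the list at 0 h, at 627 and 613 CPM, was not called at 1 h. Its log2 fold change was -0.28 (SE 0.155, BH-adjusted p in edgeR 0.15). PAL gave 10.5% and 12.5% of the counts of all listed PAL family genes at 0 h. Its share was 25.7% and 26.1% at 1 h, and 21.4% and 28% at 6 h. No test was run on this share.

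The single other identifier of the early flavonoid steps, Solyc05g010320.4, moved much as CHI-like and FLS did. It held 92.9 and 141 CPM at 0 h, 32.4 and 29.2 CPM at 1 h, and 50.1 and 43.6 CPM at 6 h. The 3 times did not overlap. Its log2 fold change was -1.92 at 1 h against 0 h (SE 0.193, BH-adjusted p in edgeR 5.2e-05) and -1.32 at 6 h against 0 h (SE 0.188, adjusted p in edgeR 0.00052).

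All 8 identifiers of the late anthocyanin steps were called lower at 1 h, with a median log2 fold change of -4.85. At 6 h, 7 were called lower, with a median of -5.4. That median stayed the same with the 2 genes of at most 3 counts in both 6 h libraries set to the bound that 3 counts allow. Compared with 1 h, 3 (37.5%) were called higher and 4 (50%) lower at 6 h, against 34.7% and 31.7% of all tested genes. The share called higher was thus near that of all tested genes. The summed level of the 8 genes was 195 and 357 CPM at 0 h, 19.8 and 18.3 CPM at 1 h, and 51.1 and 61.9 CPM at 6 h. Most of the 6 h sum came from Solyc10g083440.2 at 23.4 and 30.4 CPM and Solyc09g059170.3 at 20.3 and 22 CPM. Of the 6 regulators tested, 2 (33.3%) were called higher and 3 lower at 1 h, close to the background for the rises. The largest rise at 6 h among them was that of Solyc08g061130.3, with 1.75 on the log2 scale (SE 0.220, adjusted p in edgeR 0.00028), and the largest fall at 1 h that of Solyc09g065100.3, with -3.85 (SE 0.425, adjusted p in edgeR 8.8e-05). Of all tested genes, 32.2% were called higher and 31.3% lower at 1 h, and 30.9% and 28% at 6 h. The 4 identifiers of the chlorogenate and lignin branch had 2 called higher and 1 lower at 1 h. At 6 h, 1 of them was called higher and 2 lower. Solyc02g093270.4 of that list rose at 1 h by 2.80 (SE 0.172, adjusted p in edgeR 3.9e-06) and was lower than 0 h at 6 h, at -1.67 (SE 0.181, adjusted p in edgeR 0.00013).

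**Figure D5:**
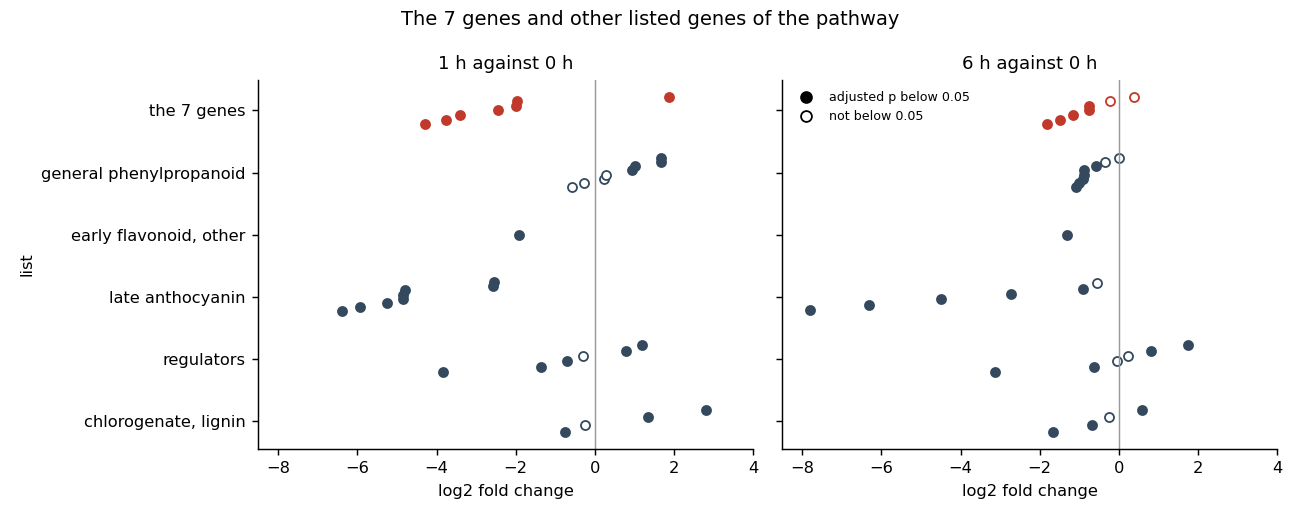
Log2 fold change (horizontal axis) at 1 h and at 6 h against 0 h of the 7 genes (red) and of other tested genes by list (vertical axis), with filled points for a BH-adjusted p below 0.05 in edgeR and without genes that held at most 3 counts in both libraries of the HS time. All 8 late anthocyanin genes lie at -2.55 or lower at 1 h, and the general phenylpropanoid genes lie between -0.59 and 1.66 at 1 h and between -1.08 and 0.00 at 6 h.

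Flavonoid genes are often most active in the leaf epidermis, and a pair of identifiers listed as epidermis markers was read beside them. Solyc11g006250.2 held 220 and 353 CPM at 0 h, 78.6 and 80.5 CPM at 1 h, and 186 and 162 CPM at 6 h. It fell at 1 h by a log2 fold change of -1.85 (SE 0.209, BH-adjusted p in edgeR 0.0001) and, like the flavonoid genes, was higher in replicate 2 of 0 h. The other, Solyc02g085870.3, was lower in replicate 2 of 0 h, with 264 CPM in replicate 1 and 239 CPM in replicate 2. It held between 209 and 264 CPM in all libraries and was not called at 1 h, at -0.19 (SE 0.125, adjusted p in edgeR 0.22). The summed level of the pair was 485 and 592 CPM at 0 h, 288 and 313 CPM at 1 h, and 421 and 379 CPM at 6 h. The part of the leaf's cell makeup in the results was not tested.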

How the data were processed

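RNA-seq was made from 6 leaf libraries at 3 times, 2 per time. The table deposited by the authors holds raw counts for each library, neither normalized nor pooled. Per the file headers, counting was done with featureCounts 2.0.0 on M82 gene models version 1.1.0, for the reverse strand, with a mapping quality of at least 30, multi-mapped reads allowed and reads counted for every gene they overlap. Trimming with Trimmomatic 0.38 is named in the submitters' processing notes. The sources differ on the aligner (STAR in the methods, Bowtie2 in the notes) and on single or paired reads, so a count may be a read or a fragment. The length column in the deposited table equals the gene span for all 35603 genes, so intron reads were counted. PAL and CHS belong to gene families, and reads shared by near-identical copies mostly fail the quality limit, so their levels are less certain. The files hold no protein, promoter or transcript sequences that could be matched to these identifiers.

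Following the study's filter, a gene was tested where 2 or more libraries held 50 or more counts (19123 genes). Libraries were scaled by TMM, and edgeR 4.0.16 in R 4.3.3 was fitted to all 6 libraries with 3 residual and 5.42 prior degrees of freedom. Tests were two-sided, with BH adjustment over all tested genes. The standard error is the absolute log2 fold change over the root of F. The steps were also run on simulated data in which few genes changed, at 1 h only. Such data cannot show how the scaling behaves under a response as wide as the one seen here. Replicates differed by more than sampling noise (chi-square per gene 19.1 at 0 h, 5.38 at 1 h, 23.9 at 6 h) and were kept separate. The exact intervals of count shares and the floor of 3 counts cover counting error only. The intervals of log2 fold changes rest on the standard error of the fit, which includes the spread between replicates.

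The 7 genes and all lists were chosen with earlier results of these data known. Genes that could be named beside the 7 were listed pathway genes called with an absolute log2 fold change of at least 1 in any comparison, at most the 20 with the largest change, the gene nearest in pattern to each of the 7, and adjacent genes that were called. Marker genes, and values of named genes below that change, were added after they had been seen. Alternatives were DESeq2 1.42.0 (the tool of the study), scaling by library size, RLE or upper quartile, filterByExpr or no filter, fits of just 4 libraries at a time, a block for the replicate number, each library left out and a threshold of 0.01.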

Additional observations from a re-analysis of the deposited data

Results flagged for a closer look

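In all 7 genes the effect at 6 h differed from the effect at 1 h, by the test of the 6 h libraries against the 1 h libraries (edgeR, BH-adjusted p between 1.6e-05 and 0.012). The difference of the 6 h effect minus the 1 h effect was 2.47 for CHS1, 2.66 for CHS2, 0.52 for CHI-like, 1.69 for F3H, 3.55 for F3'H and 0.81 for FLS on the log2 scale, which means that the level was higher at 6 h than at 1 h. For PAL it was -1.51. No time had enough libraries to look for a single library far from the others. Over all tested genes, 66.3% were called in this comparison.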

How the results depend on the processing

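At 1 h against 0 h the 7 genes kept their direction and call under all 15 alternatives, and at 6 h against 1 h under all except CHI-like, which was not called without replicate 2 of 1 h (0.33) or at a threshold of 0.01 (adjusted p 0.012 in edgeR). At 6 h against 0 h, the count of the 7 genes called higher was 1 with upper-quartile scaling and 1 with library size scaling, and ranged from 0 to 1 when a library was left out. The count called lower was 3 with library size scaling and 3 at a threshold of 0.01, and ranged from 3 to 6 when a library was left out. PAL was called higher in 3 alternatives, at 0.46 with upper-quartile scaling (adjusted p 0.038), 0.64 with library size scaling (0.0075) and 0.53 without replicate 1 of 6 h. F3'H turned to 0.04 with library size scaling and to 0.18 without replicate 2 of 0 h, and was called at -0.57 without replicate 1 of 0 h. Library size scaling, under which the median log2 fold change of all genes was -0.15, 0.30 and 0.48, against 0.00, 0.03 and 0.06 with TMM, in the 3 comparisons (1 h against 0 h, 6 h against 0 h, 6 h against 1 h), gave 3379 genes lower at 6 h against 0 h, 10248 higher and 3552 lower at 6 h against 1 h, and 5 other pathway genes higher at 6 h against 0 h. These counts were 5350, 6633, 6055 and 3 with TMM. The number of other pathway genes higher at 6 h against 1 h was 8, it was 4 at a threshold of 0.01, and it ranged from 4 to 8 when a library was left out. Of 615 recomputed values of the 20 listed genes that met the rule for naming, 19 lost their call and 0 changed direction.

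The correlations of replicate differences were -0.0956 between 0 h and 1 h, -0.0222 between 0 h and 6 h, and 0.199 between 1 h and 6 h. They cannot show whether libraries of the same replicate number were paired. With the number as a block, the 7 genes kept 6 lower and 1 higher at 1 h against 0 h, 5 lower and 0 higher at 6 h against 0 h, and 6 higher and 1 lower at 6 h against 1 h, and 6157 genes were higher and 5931 lower at 1 h against 0 h. Levels per kb of coding length were not computed, since no coding lengths were used here. With 2 libraries per time, changes of the size of those of CHS2, F3H, F3'H and PAL at 6 h depended on single libraries. The cause of these changes with the setting was not tested.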
